A study of Mus musculus with 12 samples.

Results

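Counts assigned to 2 overlapping genes of mouse chromosome 2 were followed through macrophage polarization: Zeb2, which encodes a transcription factor, and Zeb2os, the gene annotated on the opposite strand across its first exons. They are 2 of the 24552 gene symbols in the deposited tables. The pair was chosen by its symbols with the counts of both rows over the 4 groups already known, so those counts and every fold change made from them are given as a description, with no test.

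The cells were bone marrow-derived macrophages, made by growing mouse bone marrow for 6 days in medium with 10 ng/ml M-CSF, the growth factor that drives monocytes and macrophages. On day 6 they received vehicle (DMSO) or 50 nM ISRIB for 1 h, and M1 cells were then given 10 ng/ml LPS with 25 ng/ml IFN-γ for 16 h with vehicle or ISRIB still present. ISRIB is a small molecule that blocks the integrated stress response, in which phosphorylated eIF2 slows translation, by activating the exchange factor eIF2B. The study asked how this response bears on inflammatory polarization.

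The 4 groups were vehicle M0, ISRIB M0, vehicle M1 and ISRIB M1, each with 3 libraries, and all shared the M-CSF culture and the pretreatment step. What the M0 cells were given during the 16 h is not spelled out in the labels, nor are the strain, age or genotype of the mice. The labels call the libraries biological replicates without saying whether they came from separate animals, so the p-values below measure the spread between these libraries. The cultures are a mixture of whatever cells M-CSF kept alive, and in bulk RNA fewer cells of a type and less RNA per cell cannot be told apart.

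ZEB2 is a zinc-finger and homeodomain protein that binds E-box-like sites with the core CACCT and mostly represses the genes it binds, together with the CtBP corepressors. It also binds receptor-activated SMAD proteins of the TGF-β and BMP pathways, and it is best known for driving epithelial-mesenchymal transition. In the myeloid lineage it is needed for the development of monocytes and plasmacytoid dendritic cells and for the identity of tissue macrophages. The antisense RNA of the human gene is known to keep an intron ahead of the ZEB2 coding sequence in the mature mRNA, which favours translation of the protein.

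In GENCODE M21, on the GRCm38 build that is also called mm10, Zeb2 (ENSMUSG00000026872.17, protein-coding) occupies chr2:44983632-45117395 on the minus strand and has 29 annotated transcripts. Zeb2os (ENSMUSG00000052248.16, class antisense) occupies chr2:45110707-45114087 on the plus strand and has 6. Zeb2os lies wholly within the span of Zeb2, and its near end is 3308 bases downstream of the most distal Zeb2 start. Exons of the genes share 653 bases, which are 32.8% of the 1990 exon bases of Zeb2os and 3.27% of the 19942 exon bases of Zeb2. Of the 29 Zeb2 transcripts, 17 start inside Zeb2os. The annotation behind the deposited counts is not given in the sources used here.

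**Figure D1:**
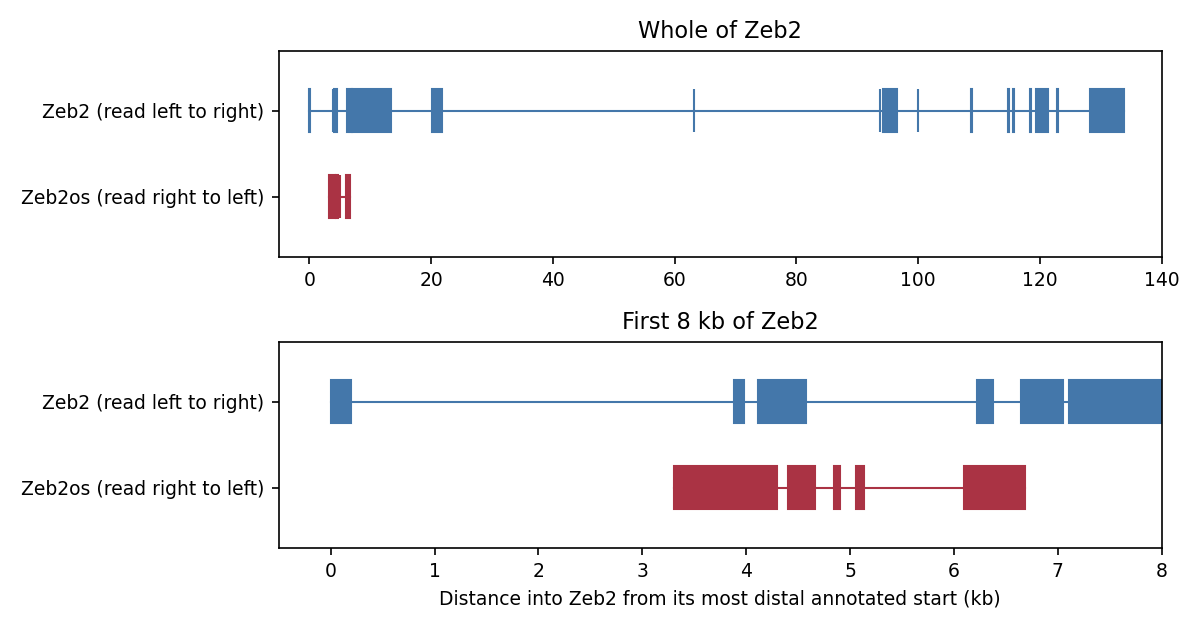
Exons of Zeb2 (blue) and Zeb2os (red) in GENCODE M21 against the distance in kb from the most distal Zeb2 start, drawn so that Zeb2 is read from left to right. Boxes are the union of exons over all transcripts and lines join them. The lower panel enlarges the first 8 kb, where Zeb2os lies and where the 653 shared exon bases are.

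RefSeq (GRCm38.p6) gives 4 start windows for Zeb2, each from 250 bases before to 50 bases after an annotated start, and 2 of them fall inside Zeb2os. One window from each kind is printed 5′ to 3′ on the minus strand to show where the genes face each other: the first, chr2:45117393-45117692, lies outside Zeb2os, and the second, chr2:45113230-45113529, lies inside it. Capitals mark CACCT, the core of ZEB sites, on either strand, and TTCNNNGAA, a palindrome of the kind bound by STAT proteins.
Zeb2 start 1: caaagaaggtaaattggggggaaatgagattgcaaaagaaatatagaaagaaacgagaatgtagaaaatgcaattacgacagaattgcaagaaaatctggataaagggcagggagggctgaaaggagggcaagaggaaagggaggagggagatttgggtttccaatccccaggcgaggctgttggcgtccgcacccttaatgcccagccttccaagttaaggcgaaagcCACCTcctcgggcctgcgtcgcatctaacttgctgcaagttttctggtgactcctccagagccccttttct
Zeb2 start 2: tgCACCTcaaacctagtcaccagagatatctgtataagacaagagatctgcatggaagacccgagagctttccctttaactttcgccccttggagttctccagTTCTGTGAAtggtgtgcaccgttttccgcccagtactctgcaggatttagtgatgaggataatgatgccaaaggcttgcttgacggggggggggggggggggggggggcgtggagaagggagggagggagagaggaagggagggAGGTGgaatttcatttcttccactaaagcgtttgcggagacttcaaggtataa
The first window held 1 CACCT match and the second held 2, together with 1 TTCNNNGAA match. Among 32851 RefSeq start windows of the same length, 51.9% held CACCT and 8.3% held TTCNNNGAA on either strand. None of the 4 Zeb2 windows held CACCTG (20.2% of all windows, a longer form of CACCT), GAAANNGAA (8.56%, the interferon response type) or GAGGAAGT (3.2%, the PU.1 type). The shortest Zeb2os transcript, Zeb2os-203 in GENCODE M21 (chr2:45112488-45112548, plus strand, class misc_RNA), is printed because it shares 0 bases with Zeb2 exons. It held 1 CACCT.
Zeb2os-203: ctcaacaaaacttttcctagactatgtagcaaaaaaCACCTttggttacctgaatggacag
These matches describe letters in a window and say nothing of binding.

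How the counts were assigned to strands decides what the values of both genes mean, and the files do not say. The library kit kept strand, per the labels' protocols, but the strand setting of the counting is not given in the sources used here. Totals were 439976 to 514037 assigned counts per library, and 1 count was worth 1.79 to 2.57 CPM, the unit of counts scaled to library size. GENCODE M21 held 24038 of the symbols, and 24.1% of those shared exon bases with a gene on the opposite strand. These symbols took 91.2% to 93.1% of each library's counts. Actb, the β-actin gene, averaged 142 counts and Gapdh, a glycolytic enzyme gene, averaged 17.5. Whether the counts under a symbol came from its own strand or from the opposite one therefore cannot be told from these tables. A direction given below for Zeb2 or Zeb2os may belong to RNA of the other gene, which was not tested. Each value below is a number of counts assigned to a symbol, not a transcript level.

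Within those limits, both symbols were among the most counted in the data. Zeb2 averaged 1339 counts per library, rank 64 of 24552, and Zeb2os averaged 790.3, rank 114. In M1 cells given vehicle, the counts assigned to Zeb2os were 2.32-fold lower than in M0 cells after scaling, whereas those assigned to Zeb2 were 1.31-fold higher, or 1.22-fold higher with ISRIB, though with library totals as the scale the Zeb2 difference was near 0 in vehicle and of the opposite sign in ISRIB. The share of the pair's counts assigned to Zeb2os, which needs no scaling, was 47.5% ± 2.43 (SD, n = 3) in vehicle M0 and 22.9% ± 1.85 in vehicle M1.

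Zeb2os had 1150, 1186 and 1163 counts in the 3 vehicle M0 libraries, and 373, 326 and 447 in the 3 vehicle M1 libraries. With ISRIB it had 914, 1155 and 1142 counts in M0, and 409, 586 and 633 in M1. Every M1 library was below every M0 library, in raw counts and after scaling. How many other genes separate in this way was not counted, so the separation does not set Zeb2os apart. Scaled by trimmed mean of M-values (TMM, which sets the libraries level on their typical gene), Zeb2os was at 2131, 2122 and 2357 CPM in vehicle M0, against 934, 838 and 1074 CPM in vehicle M1. In ISRIB M0 it was at 1901, 2101 and 2139 CPM, and in ISRIB M1 at 1022, 1316 and 1482 CPM. The order of the group means was vehicle M0, ISRIB M0, ISRIB M1 and vehicle M1, at 2203 ± 133, 2047 ± 128, 1273 ± 233 and 949 ± 119 CPM (SD, n = 3). The neighbours vehicle M0 and ISRIB M0 overlapped, as did ISRIB M1 and vehicle M1. ISRIB M0 and ISRIB M1 did not, with the lowest ISRIB M0 library at 1901 CPM and the highest ISRIB M1 library at 1482 CPM.

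Zeb2 had 1417, 1286 and 1183 counts in vehicle M0, and 1353, 1158 and 1343 in vehicle M1. With ISRIB it had 1383, 1424 and 1376 counts in M0, and 1305, 1480 and 1363 in M1. The raw counts of the transcription factor gene thus overlapped between M0 and M1 under both treatments. After TMM scaling Zeb2 was at 2626, 2301 and 2397 CPM in vehicle M0, against 3388, 2976 and 3228 CPM in vehicle M1. In ISRIB M0 it was at 2876, 2591 and 2577 CPM, and in ISRIB M1 at 3262, 3322 and 3192 CPM. On this scale every M1 library was above every M0 library, which did not hold for the raw counts and was not set beside other genes. Group means were 2441 ± 167 CPM in vehicle M0, 2681 ± 169 in ISRIB M0, 3198 ± 208 in vehicle M1 and 3259 ± 65.3 in ISRIB M1. Vehicle M0 overlapped with ISRIB M0, and vehicle M1 with ISRIB M1. The authors' deposited log2 values, scaled by their own library factors, gave group means of 10.14 ± 0.09, 10.27 ± 0.11, 10.59 ± 0.12 and 10.62 ± 0.03 for Zeb2 in the same order, and of 9.99 ± 0.11, 9.88 ± 0.07, 8.84 ± 0.19 and 9.25 ± 0.26 for Zeb2os (SD, n = 3).

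**Figure D2:**
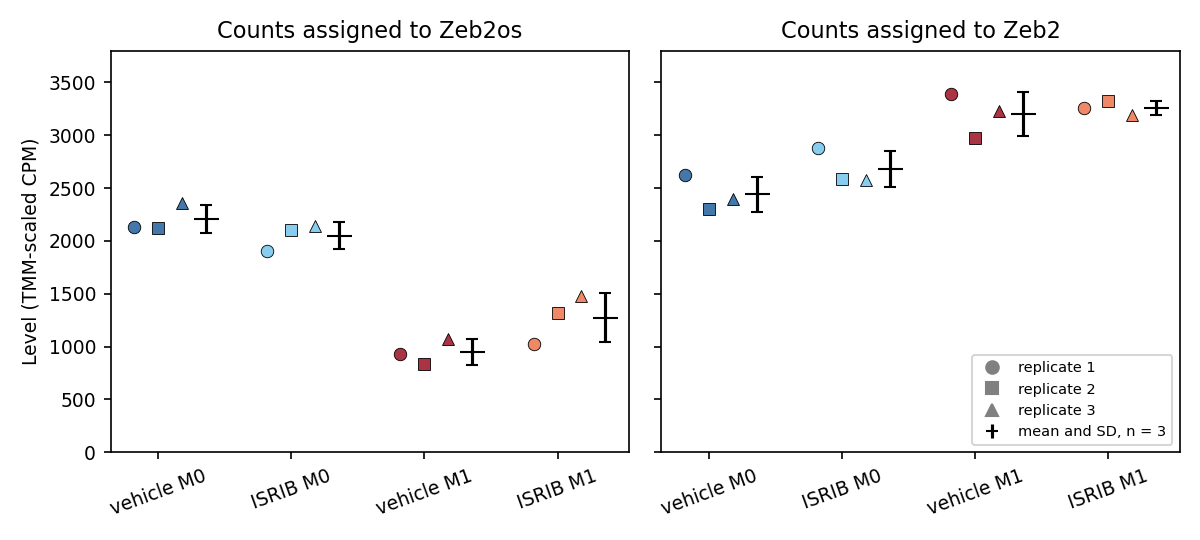
TMM-scaled CPM of counts assigned to Zeb2os (left) and Zeb2 (right) in each of the 12 libraries, by group, with the symbol shape giving the replicate number and the black bars the mean and SD of 3 libraries. Zeb2os lay between 838 and 1482 CPM in the M1 libraries and between 1901 and 2357 in the M0 libraries. Zeb2 was higher in the M1 libraries on this scale, a difference that was near 0, with the opposite sign in ISRIB, when library totals set the scale.

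The counts were also divided by annotated exon length. Zeb2os held 1107 ± 66.8 CPM per kb of exon in vehicle M0 and 477 ± 59.8 in vehicle M1 (SD, n = 3). Zeb2 held 122 ± 8.35 CPM per kb in vehicle M0 and 160 ± 10.4 in vehicle M1. With ISRIB, Zeb2os stood at 1029 ± 64.3 CPM per kb in M0 and 640 ± 117 in M1, and Zeb2 at 134 ± 8.48 and 163 ± 3.28. With the strand of the reads unknown, these values do not rank the genes. This scale spreads the counts over the union of all annotated exons, which for the long Zeb2 gene includes exons that these cells may not use.

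The share of the counts of both symbols that went to Zeb2os does not depend on how libraries are scaled. It was 44.8%, 48.0% and 49.6% in the vehicle M0 libraries, and 21.6%, 22.0% and 25.0% in the vehicle M1 libraries. With ISRIB it was 39.8%, 44.8% and 45.4% in M0, and 23.9%, 28.4% and 31.7% in M1. The lowest M0 share, in ISRIB M0 replicate 1, had a 95% exact Clopper-Pearson interval of 37.8% to 41.8%, and the highest M1 share, in ISRIB M1 replicate 3, one of 29.7% to 33.8%. Such intervals cover counting error only, since reads without molecular identifiers are not independent molecules, and libraries of one group differed by more than counting error. The mean share was 43.3% ± 3.06 in ISRIB M0 and 27.98% ± 3.94 in ISRIB M1 (SD, n = 3). As a log2 ratio of Zeb2os to Zeb2 counts, the group means were −0.15 ± 0.14 in vehicle M0, −0.39 ± 0.18 in ISRIB M0, −1.76 ± 0.15 in vehicle M1 and −1.37 ± 0.29 in ISRIB M1. Both symbols together took 0.503% of all counts in vehicle M0, 0.512% in ISRIB M0, 0.364% in vehicle M1 and 0.401% in ISRIB M1.

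**Figure D3:**
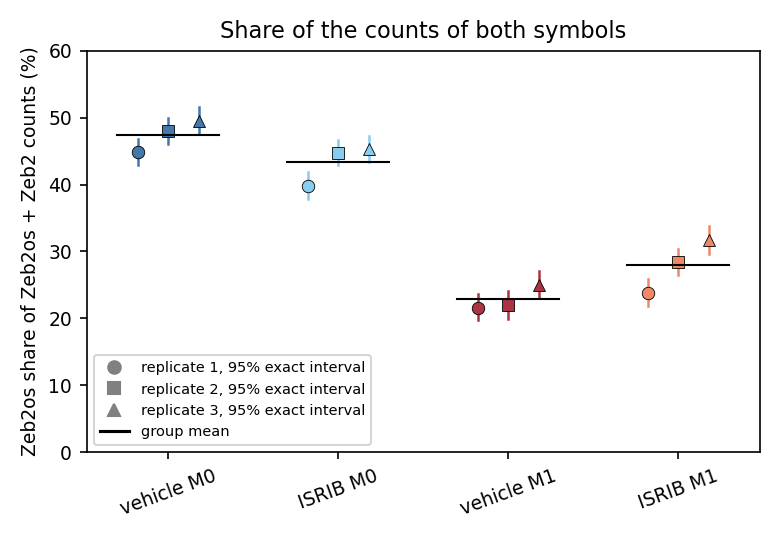
Share of the counts of Zeb2os and Zeb2 together that were assigned to Zeb2os, in percent, in each of the 12 libraries by group. Vertical lines are 95% exact binomial intervals and horizontal lines are means of 3 libraries. The M0 libraries lay between 39.8% and 49.6% and the M1 libraries between 21.6% and 31.7%.

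Polarization was compared in each treatment with a model of all 12 libraries (edgeR's quasi-likelihood test over 2356 tested genes, called at a Benjamini-Hochberg adjusted p under 0.05). It called 44.8% of the tested genes in M1 against M0 in vehicle, 24.3% higher and 20.5% lower. In ISRIB it called 44.8% as well, 23.9% higher and 20.9% lower. Both members were among the tested genes, and because their counts chose them only the fitted sizes are given. For Zeb2os the log2 fold change was −1.21 ± 0.13 (SE) in vehicle, and 18.8% of the tested genes had a lower value. In ISRIB it was −0.68 ± 0.13, with scaled counts 1.61-fold lower in M1, and 30.4% of the tested genes were lower still. The fitted decrease of Zeb2os was therefore of a size common among the genes of these cells.

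For Zeb2 the fitted log2 fold change was 0.39 ± 0.10 in vehicle and 0.28 ± 0.10 in ISRIB, but 0.09 and −0.00553 with library totals as the scale, so its sign in ISRIB turned with the scaling. That scaling moved the median of all tested genes from 0.01 to −0.29 in vehicle and from −0.01 to −0.30 in ISRIB. The part of the called genes that were higher in M1 went from 54.2% to 41.3% in vehicle and from 53.4% to 39.4% in ISRIB. Taken relative to the median of the tested genes, Zeb2 stood at 0.38 in vehicle and 0.30 in ISRIB under TMM, and at 0.38 and 0.30 with library totals. Zeb2os stood at −1.52 and −0.97 with library totals, and relative to the median at −0.67 in ISRIB under either scale. A change of scale moves all genes of a library alike. The distance between the 2 symbols was thus bound to stay about equal and is no separate result. Zeb2 alone stayed above 0 in vehicle under each of the 4 scalings, and in ISRIB under all of them but library totals.

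**Figure D4:**
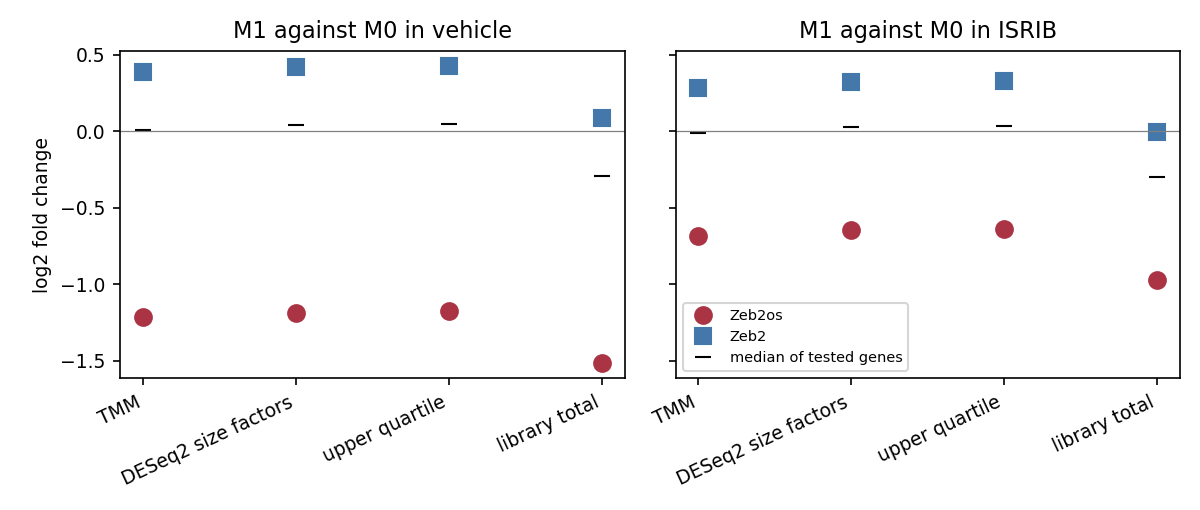
Fitted log2 fold change of Zeb2os (red circles), Zeb2 (blue squares) and the median of the tested genes (black dashes) for M1 against M0, in vehicle (left) and ISRIB (right), under 4 ways of scaling the libraries. Zeb2os was below 0 under each. With library totals Zeb2 went to 0.09 in vehicle and −0.00553 in ISRIB, and the median of the tested genes to −0.29 and −0.30.

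ISRIB was compared with vehicle within each state. Over all features the same model called 0 of 2356 genes in M1 (0%), with 134 at an unadjusted p under 0.05, and 0 by DESeq2 or limma. In M0 it called 0 as well (0%), with 143 at an unadjusted p under 0.05, 3 by DESeq2 and 0 by limma. Without ISRIB M1 replicate 2 the M1 comparison called 1 gene, and the M0 comparison called 6 without ISRIB M0 replicate 1 and 2 without ISRIB M0 replicate 2. In M1 the fitted log2 difference of Zeb2os was 0.42 ± 0.13 (SE), higher with ISRIB, and 80.7% of the tested genes had a lower value. The lowest ISRIB M1 library, at 1022 CPM, was below the highest vehicle M1 library, at 1074 CPM, so the groups overlapped. In M0 the Zeb2os difference was −0.11 ± 0.13. Zeb2 differed by 0.03 ± 0.10 in M1 and by 0.14 ± 0.10 in M0, with overlapping groups in both states. Of the 3 same-numbered pairs of libraries, Zeb2os followed its fitted direction in 3 in M1 and 3 in M0. Zeb2 did so in 1 in M1 and 3 in M0. The fitted direction comes from these same libraries, which makes such agreement likely, and how many other genes show it was not counted. The fit did not treat the numbers as pairs.

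The effect of ISRIB on polarization, the interaction term, was called in 0 of 2356 genes (0%), with 167 at an unadjusted p under 0.05, and in 0 by DESeq2 and limma. Leaving out ISRIB M0 replicate 1 gave 4 calls, and leaving out ISRIB M0 replicate 2 gave 1. Its fitted value for Zeb2os was 0.53 ± 0.19 on the log2 scale, with 79.7% of the tested genes lower, and for Zeb2 −0.11 ± 0.14. These values describe the pair and carry no test.

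Genes around the locus were read for the same pattern. GENCODE places 18 other genes within 1 Mb of Zeb2, of which 5 were in the tables. Mir5129, a microRNA gene within Zeb2, and 1700019E08Rik were at 0 counts in every library. Gtdc1, the nearest protein-coding neighbour, had 4 counts in all libraries summed, and Arhgap15, the gene of a Rac GTPase-activating protein, had 27. The remaining neighbour, Arhgap15os, is annotated opposite Arhgap15 and lies 918.3 kb from Zeb2.

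Arhgap15os had 236, 302 and 257 counts in vehicle M0, and 91, 73 and 105 in vehicle M1. With ISRIB it had 190, 257 and 265 counts in M0, and 85, 125 and 134 in M1. Every M1 library was below every M0 library, as for Zeb2os, and how many other genes share this was not counted. Counts assigned to Arhgap15os fell from 500 ± 54.8 to 223 ± 32.7 CPM in vehicle (log2 fold change −1.16 ± 0.19 SE, edgeR adjusted p = 1.622e-05). In ISRIB they fell from 453 ± 52.1 to 269 ± 51.7 CPM (−0.75 ± 0.19, edgeR adjusted p = 0.001978). The ISRIB difference in M1 was 0.27 ± 0.20 (edgeR adjusted p = 0.9515). Exons of Arhgap15os share 73 bases with those of Arhgap15 on the other strand.

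Arhgap15os was also the gene whose counts were most like those of Zeb2os among 835 others with a mean of at least 50 counts. Its Pearson r was 0.984 for log2 CPM over the 12 libraries. Rnf150 (r 0.978), Bbof1 (0.978), Gmpr2 (0.976) and Mtif3 (0.964) came next. All 4 had lower counts in vehicle M1 than in vehicle M0. They went from 291 ± 15.2 to 4.01 ± 6.94 CPM for Rnf150. For Mtif3, a mitochondrial translation initiation factor gene, they went from 2119 ± 29.2 to 1235 ± 31.2 CPM. Each of the 5 overlaps a gene on the opposite strand: Arhgap15, Gm45449, Aldh6a1, Tinf2 and Gtf3a. How many of the 835 overlap in this way was not counted, and such symbols took 91.2% to 93.1% of each library's counts. The overlaps therefore set neither these genes nor those closest to Zeb2 apart. For Zeb2 the closest were Snx22 (0.959), Numa1 (0.951), Ddb2 (0.949), Ifit2 (0.945) and Cdip1 (0.945). Ifit2, an interferon-induced gene, was at 1.23 ± 2.14 CPM in vehicle M0 and 562 ± 105 in vehicle M1, and the others overlap Ppib, Il18bp, Acp2 and Hmox2 on the opposite strand. The 12 libraries fall into an M0 and an M1 cluster and share depth and scaling, so these coefficients describe a shared difference between the states and carry no p. Ranked by Spearman's rho, 1 of the 5 genes remained for either member.

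The division of counts between Zeb2 and Zeb2os was set beside other pairs of a gene and its opposite-strand partner named with the suffix os. The tables hold 157 such pairs, and 28 had at least 600 counts summed over both genes and all libraries. In 21 of the 28 the os symbol held over 90% of the pair's counts, and the median share over the 28 was 99.2%. Zeb2os held 37.1%, from 9484 counts against 16071 for Zeb2, and Zeb2 was the most counted sense gene of the 28. Only 6 pairs had at least 200 counts on both sides. The share of Zeb2os differed between M1 and M0 by −24.6 percentage points in vehicle and −15.3 with ISRIB, and 0 other pairs shifted by as many points in either treatment. Most of the other pairs had little room to shift, since their shares were near 100%. As a ratio the shift of Wdr83os was larger than that of Zeb2os in vehicle, with a mean share of 22.4% in M0 and 5.31% in M1 (−17.0 points), and with ISRIB the shares were 15.95% and 10.1% (−5.86 points), from 133 os counts in all. For Sp3, Zbtb11 and Cebpz, the pairs closest to Zeb2 in their share, the vehicle differences were −4.65, −1.92 and 4.61 points. This comparison of pairs is a description and was not tested.

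**Figure D5:**
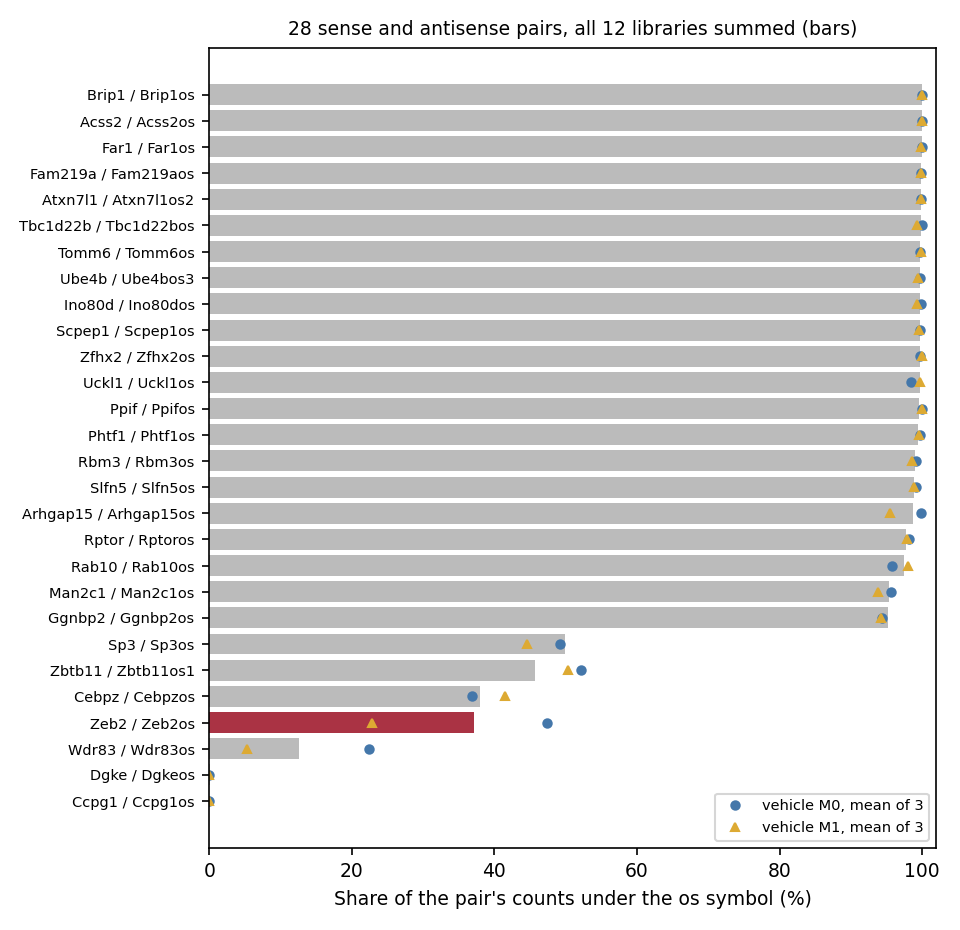
Share of each pair's counts assigned to the os symbol, in percent, for the 28 pairs with at least 600 counts, with bars for all 12 libraries summed and points for the mean of 3 vehicle M0 (blue circles) and 3 vehicle M1 (yellow triangles) libraries. In 21 pairs the bar passes 90%. The bar of Zeb2 and Zeb2os (red) ends at 37.1%, with the vehicle means at 47.5% in M0 and 22.9% in M1.

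Genes that work with ZEB2 were mostly too sparsely counted to follow. Of 16 listed corepressor genes, 2 were tested and 0 were called in either polarization comparison, where 44.8% of all tested genes were called. The histone deacetylase complex member Mta2 had a log2 fold change of −0.56 ± 0.47 in vehicle (edgeR adjusted p = 0.3564), and Kdm1a, a histone demethylase gene, one of 1.06 ± 0.76 (edgeR adjusted p = 0.2697). The median of the pair was 0.25 in vehicle, against 0.01 over all tested genes. Ctbp1 and Ctbp2, whose proteins bind ZEB2 directly, had at most 6 and 11 counts in any library.

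Among 32 genes of TGF-β and BMP signalling, 4 were tested, and 1 was called higher and 0 lower in either treatment, a share near that over all tested genes (24.3% higher in vehicle and 23.9% in ISRIB). The gene called was Tgif2, which encodes a SMAD corepressor. It had 94, 83 and 51 counts in vehicle M0, and 127, 173 and 154 in vehicle M1. Counts assigned to it rose from 142 ± 35.9 to 378 ± 63.6 CPM in vehicle (log2 fold change 1.41 ± 0.24, edgeR adjusted p = 2.382e-05), and by 1.32 ± 0.23 in ISRIB (edgeR adjusted p = 4.712e-05). Tgif2 exons overlap those of 5430405H02Rik on the opposite strand. Smad3, whose protein binds ZEB2, had a log2 fold change of 0.57 ± 0.98 (edgeR adjusted p = 0.6621) on at most 20 counts. Smad1 and Smad5 were at 0 in every library, Smad2 had 12 counts in all, and 10 of the 32 were at 0 throughout. The median of the 4 tested was 0.32 in vehicle and 0.50 in ISRIB, against 0.01 and −0.01 over all tested genes. Without ISRIB M0 replicate 3 the list had 2 calls in ISRIB.

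Of 18 genes of epithelial-mesenchymal transition, 2 were tested and both were called higher in M1 under either treatment, where 24.3% of all tested genes were called higher in vehicle and 23.9% in ISRIB. Ovol1 encodes a zinc-finger repressor that opposes the mesenchymal programme. Counts assigned to Ovol1 rose from 116 ± 22.4 to 644 ± 40.8 CPM in vehicle (2.46 ± 0.19, edgeR adjusted p = 6.538e-11). In ISRIB they rose by 2.97 ± 0.20 (edgeR adjusted p = 2.745e-12), and Ovol1 overlaps Gm31166 on the opposite strand. Vim, the intermediate filament gene vimentin, had at most 51 counts in any library, though it is known as abundant in macrophages. Counts assigned to Vim rose from 33.2 ± 11.4 to 83.2 ± 5.51 CPM in vehicle (1.32 ± 0.43, edgeR adjusted p = 0.01485). In ISRIB they rose by 1.45 ± 0.43 (edgeR adjusted p = 0.007652). The paralog Zeb1 was among the 12 of 18 at 0 in every library. In vehicle 1 of the 2 was called without vehicle M0 replicate 2 or without vehicle M0 replicate 3, and in ISRIB 1 was called without ISRIB M1 replicate 1.

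Of 30 other factors of macrophage identity, 5 were tested, of which 1 was called in vehicle and 2 in ISRIB, where 44.8% of all tested genes were called in either treatment. Cebpa, a regulator of myeloid differentiation, had 28, 34 and 18 counts in vehicle M0, and 0, 0 and 2 in vehicle M1. Counts assigned to it fell from 49.7 ± 12.3 to 1.60 ± 2.78 CPM in vehicle (edgeR adjusted p = 0.0003001) and from 34.7 ± 4.82 CPM to 0, 2 and 0 counts in ISRIB (edgeR adjusted p = 0.0009784). Counts assigned to Klf6, the gene of a zinc-finger factor of inflammatory macrophages, rose in ISRIB (3.38 ± 0.93, edgeR adjusted p = 0.00443). In vehicle the value was 0.83 ± 0.77 (edgeR adjusted p = 0.4032). Klf6 was near the floor, with 4, 0 and 2 counts in ISRIB M0 and 26, 10 and 18 in ISRIB M1. In vehicle Klf6 had 10, 24 and 2 counts in M0, and 18, 4 and 26 in M1. The difference between its 2 values was 2.55 ± 1.21 (edgeR adjusted p = 0.6839). Cebpb, Maf and Zfp36l1 passed in neither treatment. Exons of Cebpa, Cebpb, Maf and Zfp36l1 overlap those of Gm45091, Tmem189, Gm15655 and Gm26669 on the opposite strand. The median of the 5 was −0.96 in vehicle and −0.51 in ISRIB. The vehicle count became 2 without vehicle M1 replicate 3, without ISRIB M1 replicate 2 or without ISRIB M1 replicate 3. In the ISRIB comparisons and the interaction, 0 members of any of the 4 lists were called.

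The labelled cell type was read from marker genes. All 10 macrophage markers had counts, but unevenly: Lyz2 had 38 to 334 and Csf1r, the M-CSF receptor gene, 8 to 71 per library, while Cd68 had 2 to 26, Mertk 0 to 10 and Mrc1 0 to 5. Their summed counts were 1758 to 1953 in vehicle M0, 1845 to 2703 in ISRIB M0, 113 to 272 in vehicle M1 and 198 to 272 in ISRIB M1, and were led by the scavenger receptor Cd163. Without Cd163 the sums were 262 to 465, 213 to 361, 112 to 264 and 187 to 269. The 5 dendritic cell markers summed to 6 to 17 counts in vehicle M0, 10 to 19 in ISRIB M0, 325 to 404 in vehicle M1 and 407 to 434 in ISRIB M1. Xcr1 gave all but at most 3 counts of these sums, and Flt3, Zbtb46 and Cd209a were at 0 in every library. These marker sums moved with polarization, as the counts of Zeb2os did, and their part in that difference was not tested. Markers of T cells, NK cells, fibroblasts and epithelial cells were at 0 in every library, and those of neutrophils, B cells and mast cells summed to at most 4. Since macrophage markers such as Mrc1 and Mertk were also near 0 in these cultures, such low counts do not show that a cell type was absent.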

How the data were processed

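Polyadenylated RNA of 12 libraries, 4 groups of 3, was sequenced on a NovaSeq6000 from strand-specific TruSeq libraries, per the labels' protocols. The submitters' processing notes name FastQC, HTSeq, DESeq2 and the build mm10, without roles; the aligner, annotation and strand setting are not given in the sources used here. The authors deposited raw counts per gene symbol and a log2 table, on which 1 was added to the scaled count before taking the log, and one factor scaled each library to within a relative spread of 6.91e-09. DESeq2 size factors recomputed from the counts differed from those factors by up to 6.303%.

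From the deposited counts, genes passing edgeR's filterByExpr (minimum count 10, total 15) were kept: 2356 genes with 97.65% of counts. They were fitted with edgeR 4.0.16 in R 4.3.3 (TMM, quasi-likelihood, group means, all 12 libraries) and adjusted by Benjamini-Hochberg at 0.05. The script was tested on simulated counts, with changes set in vehicle M1 and the same spread for all genes. It called 43.16% of the changes of 1 on the log2 scale and 95.24% of the changes of 2. Of all its calls, 4.08% were false. A result of 0 calls therefore does not show that no gene changed. Replicates of a group differed beyond counting noise (chi-square per degree of freedom 4.465 to 7.062), so none was counted as a duplicate. Alternatives were DESeq2 1.42.0, limma 3.58.1 on the deposited log2 values, other scalings and filters, only the compared groups, the replicate number as a block and each library left out; scaling by library totals was chosen after seeing the data.

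The members and gene lists were chosen with earlier results of these data known. Named genes were both members, list members past the threshold in either polarization comparison, the genes whose proteins bind ZEB2 directly, the 5 genes of highest Pearson r with each member (log2 CPM, prior count 2, mean of at least 50 counts), symbols within 1 Mb of Zeb2, and os pairs with at least 600 counts. Mta2, Kdm1a, Cebpb, Maf, Zfp36l1, the Wdr83, Sp3, Zbtb11 and Cebpz examples and the marker genes were named after their values were seen. Exon overlaps and coordinates came from GENCODE M21 and start windows from RefSeq GRCm38.p6.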

Additional observations from a re-analysis of the deposited data

How the results depend on the processing

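The gap between Zeb2os and Zeb2 and the lower M1 counts of Zeb2os had the same sign under every alternative run. For the gap, the other scalings could not have changed this. Outside the library-by-library omissions, 188 recomputed values stayed within the spread or within 1.5 times the main count and 24 moved. With library totals as the scale, Zeb2os stood at −1.52 in vehicle and −0.97 in ISRIB, and Zeb2 at 0.0877 and −0.00553. With limma on the deposited log2 values Zeb2 stood at 0.35 in ISRIB. Requiring a mean of at least 50 counts left 530 calls in vehicle and 523 in ISRIB for polarization, because fewer genes were tested. Of the genes in the main fit 836 had such a mean, so the share called was larger than in the main fit. Without a filter on low counts, 10 genes were called for ISRIB in M0 and 9 for the interaction, and DESeq2 called 3 for ISRIB in M0. The epithelial-mesenchymal list had 1 call in vehicle with library totals, with no filter and at a mean of 50 counts, and 1 in ISRIB at a mean of 50 counts. The macrophage identity list had 2 calls in vehicle with library totals, DESeq2 and limma, 0 in vehicle and 0 in ISRIB at a mean of 50 counts, and 1 in ISRIB with only the compared groups. Other causes of these moves were not tested.

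Same-numbered libraries deviated from their group means with correlations of −0.06 to 0.113 over 12 pairs, 1 of them over 0.1. Over the genes averaging 50 counts or more they were −0.134 to 0.283, 5 of them over 0.1. The highest, 0.283 and 0.237, were for ISRIB against vehicle in M0, replicates 1 and 2. No reference value for unpaired libraries was computed, so these correlations cannot decide whether the numbers pair the libraries. Same-numbered libraries also carry consecutive sample names. The main fit left the libraries unpaired. With the replicate number as a block, 1047 and 1026 genes were called for polarization in vehicle and ISRIB, 3 for the interaction, and 2 in the macrophage identity list in vehicle. Zeb2os then stood at −1.22 and −0.69 and Zeb2 at 0.39 and 0.28.

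Leaving out each library in turn gave 963 to 1109 polarization calls in vehicle and 937 to 1099 in ISRIB, 0 to 1 calls for ISRIB in M1, 0 to 6 in M0 and 0 to 4 for the interaction. The TGF-β and BMP list had 1 to 2 calls in ISRIB, the epithelial-mesenchymal list 1 to 2 in vehicle and 1 to 2 in ISRIB, and the macrophage identity list 1 to 2 in vehicle. Zeb2os ranged from −1.30 to −1.13 in vehicle, from −0.81 to −0.55 in ISRIB and from 0.30 to 0.56 for ISRIB in M1, and Zeb2 from 0.36 to 0.47 and 0.25 to 0.32 for polarization. For ISRIB in M1, Zeb2 ranged from −0.02 to 0.07. Library totals were 439976 to 514037 counts, and most list genes did not pass the filter, whereas both members did. The part of depth or of the assignment of counts to strands in this was not tested.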

Other observations

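In each of the 4 groups the library labelled replicate 1 had the lowest share of the pair's counts assigned to Zeb2os, at 44.8%, 39.8%, 21.6% and 23.9% in vehicle M0, ISRIB M0, vehicle M1 and ISRIB M1. The library labelled replicate 3 had the highest share in each, at 49.6%, 45.4%, 25.0% and 31.7%. What a shared number stands for is not given in the labels, and this pattern was noticed in the values and not tested.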
